A study of Mus musculus with 6 samples.

Results

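The RNA of 8 enzymes and cofactors that write, copy and remove DNA methylation was followed in CD8+ T cells in which the histone demethylase LSD1 had been inhibited. They were taken as the rows of the count table named Dnmt1, Dnmt3a, Dnmt3b, Tet1, Tet2, Tet3, Uhrf1 and Uhrf2, 8 of 16281 genes. CD8+ T cells came from spleens of C57BL/6 mice with the OT1 transgene Tg(TcraTcrb)1100Mjb, which gives nearly all of their T cells one receptor for an ovalbumin peptide. They were activated for 48 h with anti-CD3 and anti-CD28 at 2 μg/ml each and IL-2 at 20 ng/ml, then expanded in IL-2 for 3 days. Throughout, 3 samples received the irreversible LSD1 inhibitor GSK2879552 (GSK) at 0.5 μM and 3 received vehicle (Veh), from 3 mice per group, and the sources used here do not say whether the groups share mice. The donors' age is not given in the sources used here, and one inhibitor at one dose and time was sequenced, with no LSD1-deficient cells.

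In mammals, DNMT3A and DNMT3B place new methyl groups on cytosines of CpG dinucleotides. DNMT1 copies the pattern to the daughter strand at replication, guided by UHRF1, which binds hemimethylated DNA, while UHRF2 is its less well understood relative. TET1, TET2 and TET3 oxidise 5-methylcytosine to 5-hydroxymethylcytosine and further products, using oxygen, iron and 2-oxoglutarate, which opens the way to demethylation. In CD8+ T cells, DNMT3A takes part in silencing naive-associated genes during effector differentiation, and loss of TET2 favours memory-like cells. In embryonic stem cells, LSD1 is known to keep the DNMT1 protein stable, a level that RNA does not show.

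Upstream windows of Tet1, Tet2, Dnmt3b and Uhrf1, whose RNA changed, are printed to show their CpG content. Uhrf2 changed too, but its window is not printed. DNA methylation was not measured, in these windows or elsewhere. RefSeq start sites of build GRCm38.p6 were found for all 8 genes, with 13 windows of 250 bases upstream of a start. Below, CpG dinucleotides are in capitals and everything else is in lower case, read 5′ to 3′ on the gene's strand. For Tet1 only the stretch outside annotated exons is shown.
Tet1, chr10:62887325-62887412, minus strand: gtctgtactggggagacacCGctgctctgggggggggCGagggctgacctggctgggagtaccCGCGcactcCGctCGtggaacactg
Tet2, chr3:133544391-133544640, minus strand: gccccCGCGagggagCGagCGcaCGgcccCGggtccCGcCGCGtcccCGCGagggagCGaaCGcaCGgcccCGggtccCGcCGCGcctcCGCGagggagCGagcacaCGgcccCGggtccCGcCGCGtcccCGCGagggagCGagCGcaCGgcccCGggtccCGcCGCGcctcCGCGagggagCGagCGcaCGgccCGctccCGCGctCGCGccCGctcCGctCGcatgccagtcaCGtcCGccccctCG
Dnmt3b, chr2:153649199-153649448, plus strand: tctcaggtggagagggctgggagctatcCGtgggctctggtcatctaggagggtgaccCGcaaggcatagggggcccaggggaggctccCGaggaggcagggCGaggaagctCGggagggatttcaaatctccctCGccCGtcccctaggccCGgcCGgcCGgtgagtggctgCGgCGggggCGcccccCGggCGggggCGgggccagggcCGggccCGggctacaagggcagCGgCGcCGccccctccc
Uhrf1, chr17:56304063-56304312, plus strand: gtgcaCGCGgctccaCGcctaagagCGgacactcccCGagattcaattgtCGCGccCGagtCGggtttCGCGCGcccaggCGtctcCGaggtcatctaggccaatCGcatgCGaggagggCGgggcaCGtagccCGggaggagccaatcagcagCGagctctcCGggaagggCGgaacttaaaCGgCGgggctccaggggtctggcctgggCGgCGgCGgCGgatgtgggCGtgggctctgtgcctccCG
The Tet2 window holds 51 CpGs, and 99.9% of the 32851 upstream windows of all genes hold fewer, against a median of 6 and an upper quartile of 16. The Dnmt3b window holds 21 and the second Uhrf1 window 30, while the first Uhrf1 window, not printed, holds 10. The whole Tet1 window holds 15 and the Uhrf2 window 23. The E2F-type sequences TTTGGCGC, TTTCCCGC, TTTCGCGC and TTTGCCGC were searched on both strands, and a window was counted once. They occurred in 2 of the 13 windows, 1 of the 3 for Dnmt1 and 1 of the 2 for Uhrf1, and in 1.86% of all windows. Each of these sequences contains a CpG, and the windows of all genes were not matched in CpG content to the 13. Windows 1 and 2 of Dnmt3a overlap. In Uhrf1 the match TTTCGCGC begins 185 bases before the start, within the printed sequence.

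The counts summed to between 18288447 and 19846720 per sample. Counts of replicates varied beyond sampling error (chi-square over its degrees of freedom 4.07 to 9.38), most between GSK replicates 2 and 3. The CD8 T cell markers Cd3d, Cd3e, Cd3g, Cd8a, Cd8b1, Cd2 and Lck summed to 3090 to 3220 CPM (counts scaled to a common library total) in Veh and 3000 to 3180 CPM in GSK, with 3 of the 7 lower (the Cd3 genes) and 2 higher. The 10 B cell markers summed to 6.36 to 8.43 CPM in Veh and 8.24 to 10 CPM in GSK, mainly Cd79b and, in GSK, also Cd22, which rose to 2.29 to 2.83 CPM, with Ms4a1 at most 0.417 CPM. The 9 myeloid markers found summed to 12.6 to 18.7 and 12.4 to 16.1 CPM, the 4 CD4 T cell markers to 43.9 to 53.2 and 40.7 to 45.9 CPM, and the 4 erythroid markers to at most 0.272 CPM. Most of the CD4 T cell sum was Zbtb7b, with means of 42.1 CPM in Veh and 37.6 CPM in GSK, while Cd4 had 1.19 and 0.967 CPM. Cd40lg, the only CD4 T cell marker past the test, rose from 0.446 to 1.29 CPM (edgeR, adjusted p = 0.018). The 5 NK cell markers summed to 419 to 430 CPM in Veh and 564 to 621 CPM in GSK, nearly all of it Nkg7, which rose and which effector CD8+ T cells express too, while Ncr1 was at most 0.0525 CPM. The part of other cells in the results was not tested. Kdm1a, which encodes LSD1, had a mean of 92.8 ± 5.45 CPM with vehicle and 87.1 ± 3.54 CPM with the inhibitor (SD, n = 3) and did not pass the test (edgeR, adjusted p = 0.22). This checks nothing about the drug, which acts on the protein.

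All 8 genes passed the filter on low counts. With edgeR's quasi-likelihood test and a threshold of 0.05 on the Benjamini-Hochberg adjusted p, 3 of them were lower in GSK and 2 higher. Tet1, Tet2 and Uhrf2 fell, Uhrf1 and Dnmt3b rose, and Dnmt1, Dnmt3a and Tet3 did not pass. Of all 11698 genes tested, 15.5% were lower and 16.6% higher at this threshold, 32.1% in all. Adding the paper's threshold of a 1.5-fold change left 1 lower gene, Tet1, and 0 higher ones, where 4.09% of all genes were called down and 2.22% up, 6.32% in all. The largest rise among the 8 was 1.24-fold, so none was called up at an unadjusted p or with DESeq2 either. The median log2 fold change of the 8 was -0.061, against -0.0039 over all genes tested. These are bulk RNA values, in which fewer cells expressing a gene and less RNA per cell cannot be told apart.

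**Figure D1:**
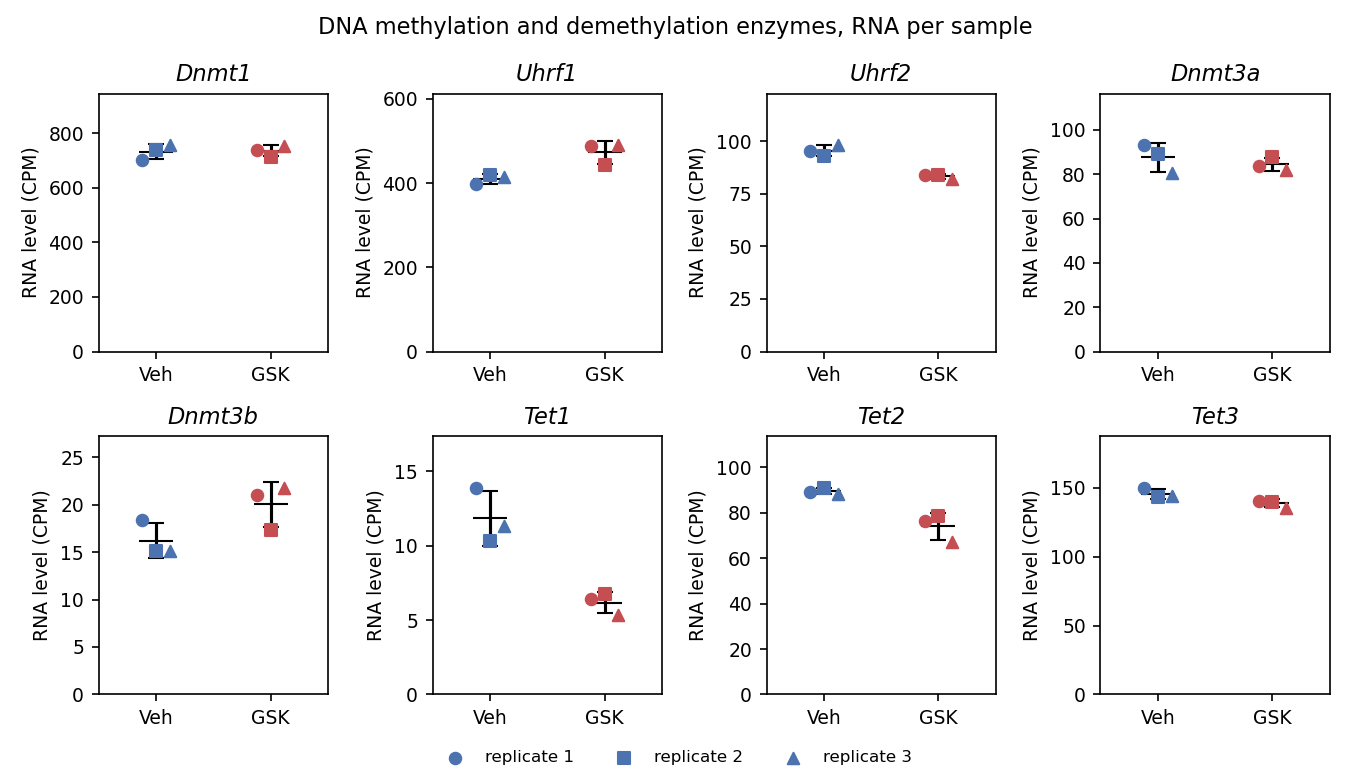
RNA level in CPM (y axis, from 0) of the 8 genes in the 3 Veh and 3 GSK samples, one panel per gene. Points are samples, with a shape for each replicate number, and lines and bars give the mean ± SD. The GSK points of Tet1, Tet2, Tet3 and Uhrf2 lie below all Veh points, those of Uhrf1 above, and the groups overlap for Dnmt1, Dnmt3a and Dnmt3b.

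Among the demethylating enzymes, Tet1 fell the most in log2 fold change. Tet1 had 13.9, 10.3 and 11.4 CPM in the Veh samples and 6.40, 6.73 and 5.37 CPM in the GSK samples, resting on 255, 192 and 216 counts and on 122, 133 and 103 counts. Every GSK sample lay below every Veh sample, as was the case, in one direction or the other, for 46.7% of all genes tested. The mean went from 11.8 ± 1.83 CPM (SD, n = 3) to 6.17 ± 0.710 CPM (SD, n = 3), a 1.92-fold fall. On the log2 scale Tet1 changed by -0.94 (standard error 0.145, edgeR adjusted p = 4.5e-04), and the change stayed between -1.03 and -0.81 with 1 sample left out. A test of the change against 1.5-fold, rather than against 0, was not passed (adjusted p = 0.19, edgeR), so the size of the fall past 1.5-fold is uncertain. In GRCm38, Tet1 spans chromosome 10 from 62804570 to 62908996 on the minus strand, and the RefSeq start used above lies inside this region, downstream of another annotated start. The counts are per gene and do not separate transcripts from the different starts.

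Tet2 had 89.3, 90.9 and 88.2 CPM in Veh and 76.3, 78.5 and 67.1 CPM in GSK. Again no GSK sample reached the Veh range, and GSK replicate 3 was the lowest. The mean fell 1.21-fold, from 89.5 ± 1.35 to 74.0 ± 6.04 CPM (SD, n = 3), with a log2 fold change of -0.27 (edgeR, adjusted p = 0.0039, standard error 0.0596). Tet2 lies on chromosome 3 from 133463679 to 133545139, where an antisense gene, Gm42567, shares 0.255% of its exon bases. Tet3 had 150, 143 and 144 CPM in Veh and 141, 140 and 136 CPM in GSK. All GSK values of Tet3 lay below the Veh values, but by little, with a log2 fold change of -0.071 (standard error 0.0433) that did not pass (edgeR, adjusted p = 0.23). Tet3 lies on chromosome 6 from 83362373 to 83459084.

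Of the hemimethylated-DNA readers, Uhrf1 and Uhrf2 moved in opposite directions. Uhrf1 had 398, 420 and 414 CPM in Veh and 487, 442 and 490 CPM in GSK, and GSK replicate 2 stood nearest to Veh. Its mean rose 1.15-fold, from 411 ± 11.7 to 473 ± 27.0 CPM (SD, n = 3), with a log2 fold change of 0.20 (edgeR, adjusted p = 0.0045, standard error 0.0454). With 1 sample left out the log2 fold change was 0.18 to 0.25 and the adjusted p reached up to 0.039. Uhrf2 had 95.6, 93.0 and 98.2 CPM in Veh and 84.0, 84.1 and 81.9 CPM in GSK. The GSK samples of Uhrf2 lay close together and below Veh, a 1.15-fold fall (log2 fold change -0.20, standard error 0.0467, adjusted p = 0.0062, edgeR). Uhrf1 lies on chromosome 17 from 56303321 to 56323486 and Uhrf2 on chromosome 19 from 30030513 to 30093722.

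Of the methyltransferases, Dnmt3b was past the test, and less firmly than the genes above. Dnmt3b had 18.3, 15.1 and 15.1 CPM in Veh and 21.0, 17.3 and 21.7 CPM in GSK. The groups overlapped, since GSK replicate 2 was below Veh replicate 1. The mean went from 16.2 ± 1.85 to 20.0 ± 2.37 CPM (SD, n = 3), 1.24-fold (log2 fold change 0.31, standard error 0.109, adjusted p = 0.047, edgeR). The adjusted p was 0.075 with DESeq2. Without Veh replicate 2, Veh replicate 3, GSK replicate 1 or GSK replicate 3 it was 0.15, 0.15, 0.16 and 0.16. Dnmt3b lies on chromosome 2 from 153649450 to 153687730.

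Dnmt1 had the highest CPM of the 8 genes and hardly differed in mean, with 703, 737 and 756 CPM in Veh and 739, 714 and 753 CPM in GSK. All GSK values fell within the Veh range. On the log2 scale the change was 0.0066 (edgeR, adjusted p = 0.91, standard error 0.0378), and it lay between -0.022 and 0.031 with 1 sample left out. Dnmt3a, the other de novo enzyme, had 93.1, 89.1 and 80.6 CPM in Veh and 83.9, 87.8 and 81.9 CPM in GSK, again within the Veh range. For Dnmt3a the change was -0.051 on the log2 scale (edgeR, adjusted p = 0.54, standard error 0.0586). Dnmt1 lies on chromosome 9 from 20907209 to 20959888 and Dnmt3a on chromosome 12 from 3806007 to 3914443, where the antisense gene Dnmt3aos shares 0.799% of the exon bases.

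**Figure D2:**
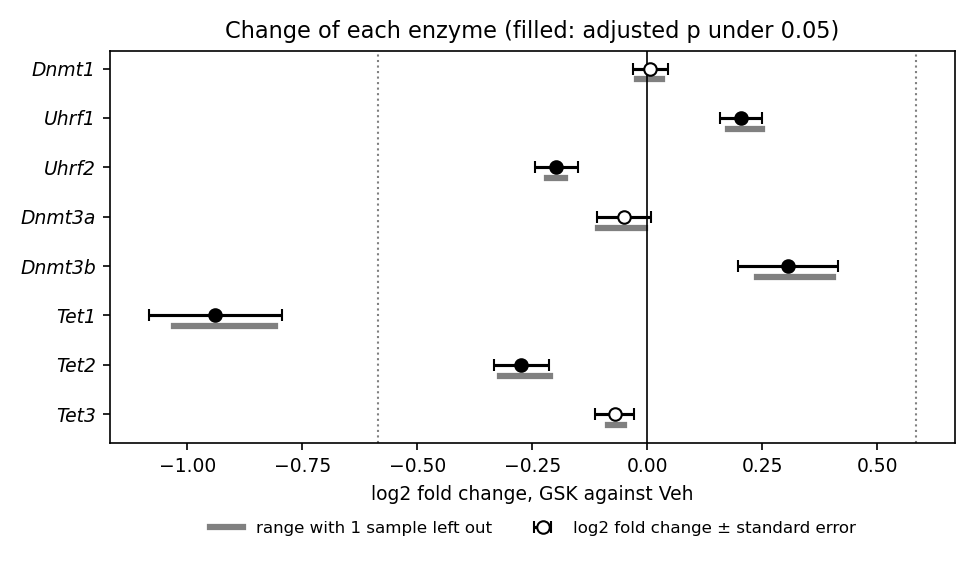
Log2 fold change of GSK against Veh (x axis) for each gene, with its standard error and, in grey, its range with 1 sample left out. Filled points have an adjusted p under 0.05 and dotted lines mark a 1.5-fold change, which Tet1, at -0.94, is past.

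To compare levels between genes, CPM were divided by the length of the merged exons of each gene in kilobases (GENCODE M21, GRCm38). On this scale Dnmt1 and Uhrf1, the maintenance pair, were near each other and far above the rest. In Veh, Dnmt1 had 99.2 ± 3.65 and Uhrf1 96.4 ± 2.75 CPM per kb (SD, n = 3), ranges that overlapped. In GSK they had 99.7 ± 2.68 and 111 ± 6.34 CPM per kb, and every sample's Uhrf1 level, at 104 or more, lay above every Dnmt1 level, at 102 or less. The ratio of Uhrf1 to Dnmt1 per kb was 0.980, 0.988 and 0.948 in Veh and 1.14, 1.07 and 1.13 in GSK. These ratios did not overlap, and no test was run on them, since 3 samples against 3 cannot give an exact permutation p under 0.1.

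Below this pair came Uhrf2 with 11.1 ± 0.300, Tet3 with 8.74 ± 0.215, Tet2 with 5.30 ± 0.0801, Dnmt3a with 5.26 ± 0.385, Dnmt3b with 3.17 ± 0.362 and Tet1 with 0.766 ± 0.119 CPM per kb in Veh (SD, n = 3). Tet2 and Dnmt3a overlapped in Veh but not in GSK, where Dnmt3a, at 5.08 ± 0.180, was the higher and Tet2 had 4.38 ± 0.358 CPM per kb. In GSK, Tet2 also overlapped with Dnmt3b, the next in the order, which had 3.92 ± 0.465 CPM per kb. The other neighbours did not overlap in Veh or in GSK. Tet1 was the lowest of the 8 in Veh, and in GSK it had 0.399 ± 0.0460 CPM per kb. With the longest coding transcript as the length, the order of the means was the same in each group, but the levels moved, in Veh to 27.0 for Uhrf2, 13.4 for Tet3, 9.75 for Tet2 and 9.04 CPM per kb for Dnmt3a. Which neighbours overlapped moved too: on that length Dnmt1 and Uhrf1 overlapped in GSK and not in Veh, Tet2 and Dnmt3a overlapped in both groups, and Tet2 and Dnmt3b did not overlap in GSK.

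Within the TET family, Tet3 made up the largest share of the summed level per kb, 59.2%, 58.6% and 59.2% in Veh and 63.1%, 62.3% and 65.2% in GSK. Tet1 made up 5.91%, 4.55% and 5.03% in Veh and 3.10%, 3.23% and 2.79% in GSK, so that the gene with the largest fall held a small part of the family's RNA. The summed TET level went from 14.8 ± 0.319 to 13.1 ± 0.572 CPM per kb (SD, n = 3). Of the de novo pair, Dnmt3b made up 39.1%, 35.6% and 38.0% in Veh and 44.9%, 39.1% and 46.4% in GSK, and the sum of the pair was 8.44 ± 0.698 and 9.00 ± 0.290 CPM per kb. With the longest coding transcript as the length, the mean share of Tet1 was 3.44% in Veh and 2.02% in GSK, that of Tet3 55.9% and 60.1%, and that of Dnmt3b in its pair 29.3% and 34.6%. These shares were computed after the values of the single genes had been seen, and they were not tested.

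**Figure D3:**
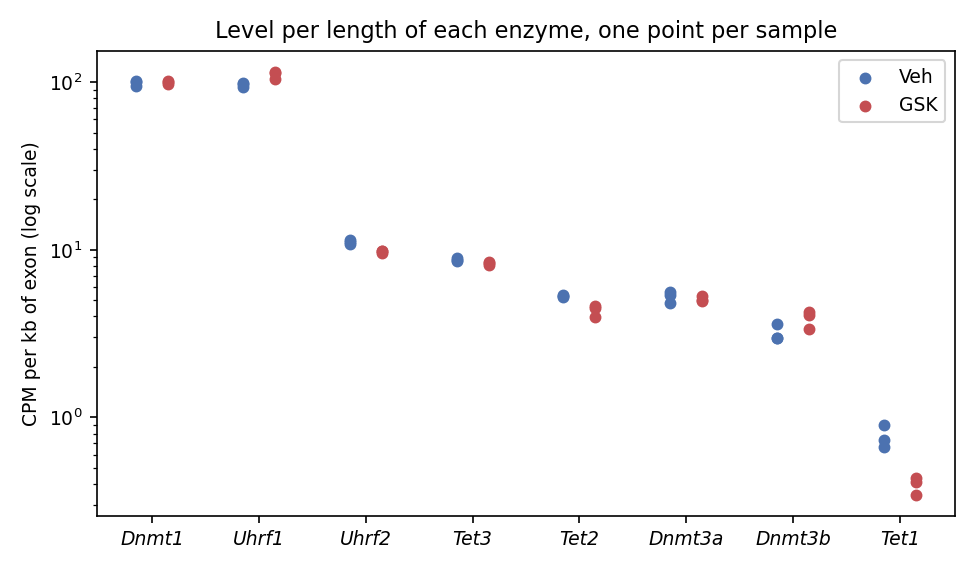
Level of each gene in CPM per kb of exon (y axis, log scale), with one point per sample, Veh in blue and GSK in red. Dnmt1 and Uhrf1 stand near 100, the other 6 genes below 12, and Tet1 is lowest in both groups.

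UHRF1 and DNMT1 act at replication forks, and their genes are known to be expressed most in S phase, so S phase genes were set beside them. Of 26 such genes, 6 were higher and 0 lower at an adjusted p under 0.05 (edgeR). This was 23.1% past the test, against 32.1% of all genes tested. By direction, 16.6% of all genes were higher and 15.5% lower, shares to set beside the lists below too. The median log2 fold change of the 26 was 0.12, and 25 of them lay above 0. The count of higher genes was 12 without GSK replicate 2. Among the 6 were Mcm2 (log2 fold change 0.28, adjusted p = 9.0e-04) and Mcm3, subunits of the replicative helicase, Tipin (0.29, adjusted p = 0.0029), a fork protection factor, Rrm2, which serves nucleotide synthesis, and the flap endonuclease gene Fen1. None of the 26 was lower at an unadjusted p under 0.05, or with DESeq2 at the adjusted one. Without 1 sample, the adjusted p reached up to 0.10 for Mcm3, and 78.8% of the exon bases of Fen1 are shared with the antisense gene Gm10143.

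The 26 genes summed to 5038, 5253 and 5254 CPM in Veh and to 5672, 5328 and 5919 CPM in GSK. GSK replicate 2 was the lowest GSK sample for the sum, for 25 of the 26 genes and, of the 8 methylation genes, for Dnmt1, Uhrf1 and Dnmt3b. As a percentage of the S phase sum, Uhrf1 was 7.893, 8.003 and 7.879 in Veh and 8.592, 8.297 and 8.281 in GSK, still without overlap. Dnmt1, by the same measure, was 14.0, 14.0 and 14.4 in Veh and 13.0, 13.4 and 12.7 in GSK, so it was lower relative to these genes in each GSK sample. Dnmt3b was 0.3639, 0.288 and 0.2881 in Veh and 0.3702, 0.3249 and 0.3673 in GSK, and by this measure its groups overlapped, as they did in CPM. The part of S phase in the changes of Uhrf1 and Dnmt3b was not tested.

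**Figure D4:**
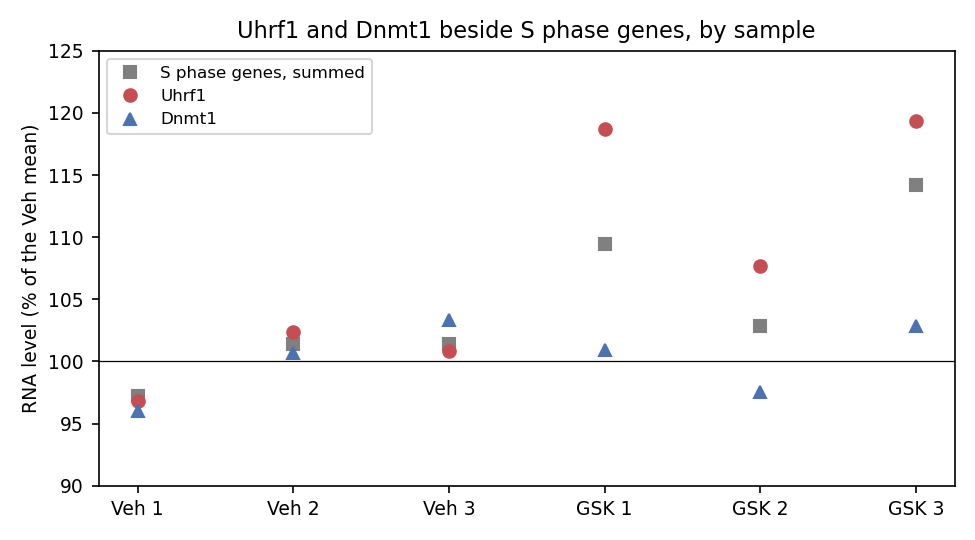
RNA level as a percentage of the Veh mean (y axis, which starts at 90) for Uhrf1, Dnmt1 and the summed 26 S phase genes in each of the 6 samples. In each GSK sample Uhrf1 lies above the S phase sum and Dnmt1 below it, and all 3 are lower in GSK replicate 2 than in the other GSK samples.

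Partners of the methyltransferases changed little. Of 8 genes tested, Hells, which encodes the remodeller LSH needed for methylation of repeats, rose from 182 ± 2.06 to 205 ± 8.29 CPM (SD, n = 3; log2 fold change 0.17, adjusted p = 0.010, edgeR). Cdca7, which recruits it, had a log2 fold change of 0.16 and did not pass (adjusted p = 0.056). The other 6 did not pass either, among them Pcna, the sliding clamp, and Trim28, a corepressor. Without GSK replicate 2, 4 genes of this list were higher, and 2 were without Veh replicate 2. Dnmt3l and Zfp57 had too few counts to be tested.

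Readers of methylated CpG and a relative changed in both directions, with 4 of 8 lower and 2 higher at an adjusted p under 0.05. The list, called readers here, also holds the NuRD subunit gene Mbd3. Its counts are therefore not of readers alone. Mbd2, which recruits the NuRD deacetylase complex to methylated DNA, had 247, 246 and 241 CPM in Veh and 308, 322 and 320 CPM in GSK. This was the smallest p of the list, with the GSK samples well above Veh (log2 fold change 0.37, standard error 0.0394, adjusted p = 3.0e-05, edgeR). Mbd4, a thymine glycosylase, fell by 0.45 on the log2 scale, Zbtb38 by 0.39 and Mbd1 by 0.15, while Mbd3, a NuRD subunit, rose by 0.18. Of these, Mbd1 and Mbd3 reached adjusted p-values up to 0.10 and 0.14 with 1 sample left out, and the count of higher readers was 1 without any one of Veh replicates 1 and 2 and GSK replicates 1 and 3. Zbtb33 and Zbtb4 did not pass.

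The next list held base excision genes, which complete demethylation after TET oxidation, and partners of the TET proteins. It also held the Gadd45 genes and the deaminase genes Apobec1 and Apobec3, so its counts are not of demethylation genes alone. Of 18 genes tested, 4 were higher and 6 lower. Gadd45g, a stress gene of a family implicated in active demethylation, had 23.8, 26.9 and 21.9 CPM in Veh and 52.1, 51.1 and 57.5 CPM in GSK. The groups were far apart, and the change was past the test against 1.5-fold as well (log2 fold change 1.15, standard error 0.0816, adjusted p = 1.4e-06, edgeR). Its relative Gadd45b was lower (log2 fold change -0.45, adjusted p = 0.026, and up to 0.087 with 1 sample left out), and Gadd45a did not pass. Neil2, a DNA glycosylase, had 2.61, 2.47 and 2.52 CPM in Veh and 1.26, 1.16 and 0.626 CPM in GSK, a low gene, below Veh in every GSK sample (log2 fold change -1.31, standard error 0.292, adjusted p = 0.0046, and 0.20 in the test against 1.5-fold).

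Ogt, the sugar transferase that binds TET2 and TET3, had 516, 457 and 491 CPM in Veh and 346, 371 and 303 CPM in GSK. It fell 1.44-fold (log2 fold change -0.52, standard error 0.0733, adjusted p = 9.4e-04, edgeR). Apex1, the abasic endonuclease gene, rose by 0.48 on the log2 scale (adjusted p = 4.4e-04), but 61.7% of its exon bases are shared with Pip4p1 on the other strand, and whether the counting used strand is not given in the sources used here. Parp1 (0.25) and Lig3 (0.26) were also higher in log2 fold change, and Neil1 (-0.25), Neil3 (-0.28) and Apobec3 (-0.16) lower, of which Lig3 shares 25.1% of its exon bases with Rffl. Without 1 sample, the adjusted p reached up to 0.14 for Neil1 and 0.070 for Lig3. Tdg, the glycosylase that removes the oxidised bases, was at a log2 fold change of 0.17 and did not pass (adjusted p = 0.051).

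Genes around S-adenosylmethionine, the methyl donor, were mostly higher. The list, called methyl donor supply here, also holds genes that use it or handle its product, such as Amd1 and Ahcy. Its counts are therefore not of supply alone. Of 13 tested, 8 rose and 1 fell, with a median log2 fold change of 0.26 against -0.0039 over all genes. Shmt1, the cytosolic serine hydroxymethyltransferase, had 39.7, 49.2 and 47.3 CPM in Veh and 75.02, 67.36 and 83.42 CPM in GSK. All GSK samples lay above Veh, and this was the one gene of the list past 1.5-fold (log2 fold change 0.73, standard error 0.0938, adjusted p = 3.5e-04, edgeR), although not in the test against 1.5-fold (adjusted p = 0.73), with 4.74% of its exon bases shared with Smcr8. Mat2a, which makes S-adenosylmethionine, had 226, 237 and 213 CPM in Veh and 302, 274 and 322 CPM in GSK (log2 fold change 0.41, standard error 0.0591, adjusted p = 3.7e-04), and 11.3% of its exon bases are shared with the opposite-strand gene Particl. Mthfd1 (0.52), Mtrr (0.43), Amd1 (0.39), Slc7a5 (0.30) and Mthfd2 (0.18) were also higher in log2 fold change, Mthfd2 with an adjusted p of up to 0.092 when 1 sample was left out. Mat2b, the regulatory subunit gene, was the one that fell (-0.16, adjusted p = 0.030, and above the threshold without Veh replicate 1, Veh replicate 3 or GSK replicate 1, at up to 0.13). Ahcy, Ahcyl1, Mtr and Shmt2 did not pass.

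Genes around 2-oxoglutarate, the cosubstrate of the TET proteins, had 3 of 12 higher and 2 lower. For all genes tested the shares were 16.6% higher and 15.5% lower. Idh3a, a subunit of mitochondrial isocitrate dehydrogenase, changed by 0.30 on the log2 scale (standard error 0.0653, edgeR adjusted p = 0.0047), and Got1 (0.21) and Ogdh (0.15) were also higher. For Ogdh the adjusted p was 0.089, 0.066, 0.091 and 0.082 without Veh replicate 1, Veh replicate 2, GSK replicate 1 and GSK replicate 3. Idh1, the cytosolic isocitrate dehydrogenase, changed by -0.31 (standard error 0.0782, edgeR adjusted p = 0.0090), and D2hgdh, which removes the TET inhibitor D-2-hydroxyglutarate, by -0.30 (adjusted p = 0.025, and 0.12 without Veh replicate 1 and 0.074 without GSK replicate 2). Among those that did not pass were Idh2, Idh3b, Idh3g, Got2 and Glud1.

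**Figure D5:**
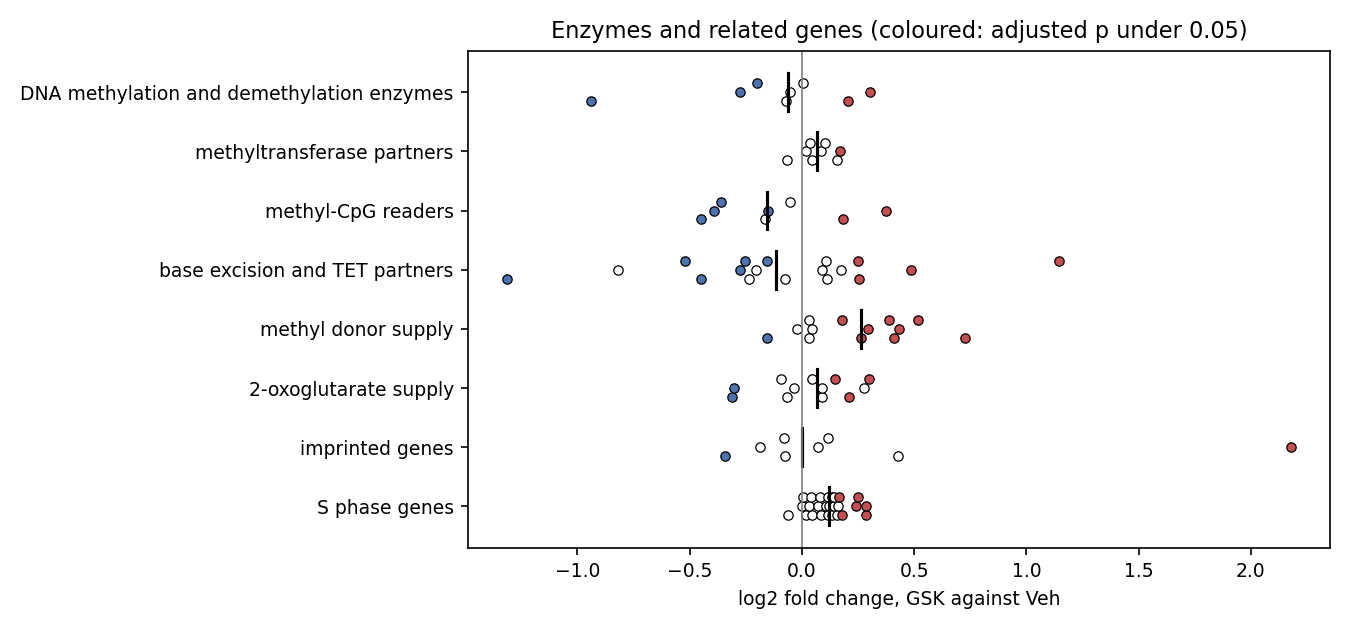
Log2 fold change of GSK against Veh (x axis) for each tested gene of the 8 enzymes and of 7 related lists, one point per gene. Red and blue points are higher and lower at an adjusted p under 0.05, white points did not pass, and black lines are medians, which run from -0.16 for readers to 0.26 for methyl donor supply.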

How the data were processed

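RNA was sequenced from 3 GSK and 3 Veh samples. The authors trimmed reads with Trimmomatic, mapped them to GRCm38 with HISAT2 (version 2.1.0) and counted them per gene with HTSeq (version 0.11.2), and the deposited values are these whole counts, not normalized. The annotation and strand setting are not given in the sources used here. Total counts of 18288447 to 19846720 per sample limit precision for low genes.

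The test was the quasi-likelihood one of edgeR (version 4.0.16, R version 4.3.3) with robust dispersion, TMM factors, filterByExpr and Benjamini-Hochberg adjustment over 11698 genes, and no covariate. CPM use TMM-scaled totals. Standard errors were derived from the test statistic. On simulated counts with 200 of 11589 genes changed, 93.5% were recovered with 8 false calls. This is a single rate, and it does not cover the threshold on adjusted p alone. Recovery at smaller fold changes, such as those of Tet1, Tet2, Dnmt3b, Uhrf1 and Uhrf2, was not tested separately. Exon lengths and overlaps came from GENCODE M21.

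The 8 genes and all lists were chosen with earlier results of these data known. Named by rule were the 8 genes, the genes of a list past both thresholds or else its 2 with the smallest p, Kdm1a and the 3 genes most like Tet1. Other genes were named after their values were seen, and some genes counted in the lists are not reported here by name. Alternatives were DESeq2 (version 1.42.0), RLE factors, 2 filters, the replicate block, a test against 1.5-fold, leaving out each sample and, chosen after seeing the data, another transcript length.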

Additional observations from a re-analysis of the deposited data

How the results depend on the processing

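The 3 falls among the 8 genes (Tet1, Tet2, Uhrf2) and the rise of Uhrf1 passed the adjusted p under DESeq2, RLE factors, both filters, the replicate block and every left-out sample. The rise of Dnmt3b did not pass under DESeq2 or without any one of 4 samples, so 1 of the 8 genes was higher with DESeq2 and 1 to 2 with a sample left out, against 2. The test against a 1.5-fold change called 0 of the 8 genes down, where the paper's thresholds gave 1. The median log2 fold change of the 8 lay between -0.093 (without Veh replicate 3) and -0.036 with a sample left out. The log2 fold change of Dnmt1 changed sign to -0.022 without Veh replicate 1 and to -0.013 without GSK replicate 3, and its highest value was 0.031 without Veh replicate 3.

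With DESeq2, 0 genes of methyl donor supply, 1 of 2-oxoglutarate supply and 0 imprinted genes were lower. Without a filter, 2 methyltransferase partners were higher and 0 imprinted genes lower. With CPM over 1 in at least 3 samples, 0 imprinted genes were higher, since Mest was not tested. With a sample left out, the counts were 1 to 4 higher methyltransferase partners, 1 to 2 higher readers, 0 to 1 lower donor genes, 1 to 2 lower 2-oxoglutarate genes, 0 to 1 lower imprinted genes and 4 to 12 higher S phase genes. The causes were not tested.

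With the replicate block, 0 imprinted genes were lower, and 1703 genes in all were higher and 1600 lower, against 1941 and 1819. Whether an equal replicate number means a shared mouse is not given in the sources used here, and it was not tested. With the group means subtracted, Veh and GSK replicates correlated at -0.052, -0.081 and 0.16 for numbers 1, 2 and 3. Of the 6 samples, 2 correlated best with their own number, namely Veh replicate 3 and GSK replicate 3. With 3 samples per group, outliers were not tested.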

Other observations

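Few genes known to be silenced by promoter methylation could be read. Of 22 germline genes, 9 were found and 1, the testis bromodomain gene Brdt, had enough counts to be tested. Brdt had 1.52, 1.72 and 2.68 CPM in Veh and 0.787, 0.759 and 0.365 CPM in GSK, lower in every GSK sample (log2 fold change -1.62, standard error 0.369, adjusted p = 0.0051, edgeR's quasi-likelihood test, and 0.16 in the test against 1.5-fold). Dazl, Ddx4, Tex19.1, Tex11, Sycp3, Rhox5, Dpep3 and Fkbp6 had at most 0.544 CPM in any sample.

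Of 28 imprinted genes, which carry methylation from one parent, 17 were found and 8 tested, with 1 higher and 1 lower. Mest had 0.218, 0.215 and 0.420 CPM in Veh and 1.57, 0.911 and 1.46 CPM in GSK, low values that did not overlap (log2 fold change 2.18, standard error 0.433, adjusted p = 0.0023, edgeR). Copg2 shares 23.1% of the exon bases of Mest on the other strand, and the test against 1.5-fold was not passed (adjusted p = 0.056). Zrsr1 was lower, at an adjusted p just inside the threshold (log2 fold change -0.34), and was above it with DESeq2, without a filter, with the replicate block and without any one sample other than GSK replicate 2, at up to 0.17. Commd1 shares 9.17% of its exon bases.

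The tested genes whose values were most like those of Tet1 were Meis3, Tmem71 and Aldoc, a homeobox gene, a membrane protein gene and a glycolytic aldolase gene. The measure was the root-mean-square difference over the 6 samples of log2 CPM centred on the Veh mean, 0.0672, 0.0845 and 0.0907. Their log2 fold changes were -0.99, -0.99 and -0.85, and in the test against 1.5-fold they had adjusted p-values of 0.32, 0.39 and 0.15 (edgeR).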
